A study of Pogona vitticeps with 24 samples.

Results

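Mesenchyme of the anterior jaw position in Sca/+ bearded dragons (*Pogona vitticeps*) was compared with mesenchyme of the posterior position in wild-type (WT) animals, gene by gene. The comparison asks which genes still separate mutant anterior tissue from true acrodont tissue. The table holds 11126 genes, and 9987 of them, whose level averaged 3 log2 CPM or more over the 7 usable groups, were compared (CPM being counts scaled to the size of the library). The groups are 2 of 8 in a study of 24 samples, with 3 samples in each, so that 6 samples stand behind the comparison. All animals were hatchlings, and the tissue was mesenchyme around the successional dental lamina, collected by laser capture microdissection. WT posterior tissue lies where teeth are acrodont, and Sca/+ anterior tissue lies where WT teeth are pleurodont. Sca/+ animals carry 1 copy of the codominant scaleless mutation in EDA, and WT animals carry none. Genotype and jaw position differ together, and the animals differ too, so that these cannot be told apart. Which teeth each Sca/+ sample carried was judged only roughly by eye before sectioning, by which all 3 mutants looked abnormal at the front of the dentary.

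Pleurodont teeth are attached to the inner side of the jaw and are replaced through life, whereas acrodont teeth sit on the crest of the jaw bone, fuse to it and are usually not replaced. Both kinds form from a dental lamina, an epithelial fold that exchanges signals with the mesenchyme beneath it. EDA is a ligand of the tumor necrosis factor family that acts through its receptor EDAR and the adaptor EDARADD on NF-kB, and it is known for its part in teeth, hair, scales and glands.

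The file gives 1 value per group, named by the authors as a mean, so no spread between animals can be had and no gene was tested. Each value is a whole multiple of 1 counting step within 0.0065 CPM, a step being worth 1.30 CPM in Sca/+ anterior and 0.927 CPM in WT posterior mesenchyme. The columns held 789353 and 1130499 steps, and the median gene kept had 31 and 43. A step was taken as 1 count for exact 95% intervals of each difference (Clopper-Pearson), given in brackets, which cover counting error only. Whether a column is 1 library or a mean of several was not settled, and the intervals are approximate to that extent. Differences are Sca/+ anterior minus WT posterior in log2 units unless another pair is named, and a gene was called higher or lower at 1 unit or more. Levels in log2 CPM are not per length, so they are compared between groups and not between genes.

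By this rule 1016 genes were higher in Sca/+ anterior mesenchyme, or 10.2% of those compared, and 824 were lower, or 8.25%. The median difference was -0.01, and 53.7% of genes lay within 0.5 units. Differences of at least 2 units were found for 138 genes upward and 132 downward, and of at least 3 units for 22 and 24. The interval excluded 0 in 820 of the higher and 665 of the lower genes, and it lay wholly beyond 1 unit in 133 and 124. Many calls rest on few counts, since 689 of the higher genes had under 20 steps in WT posterior and 571 of the lower genes had under 20 in Sca/+ anterior mesenchyme. Among the 2497 genes with the lowest mean levels 480 were higher and 343 lower, against 122 and 82 among the 2497 with the highest.

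**Figure D1:**
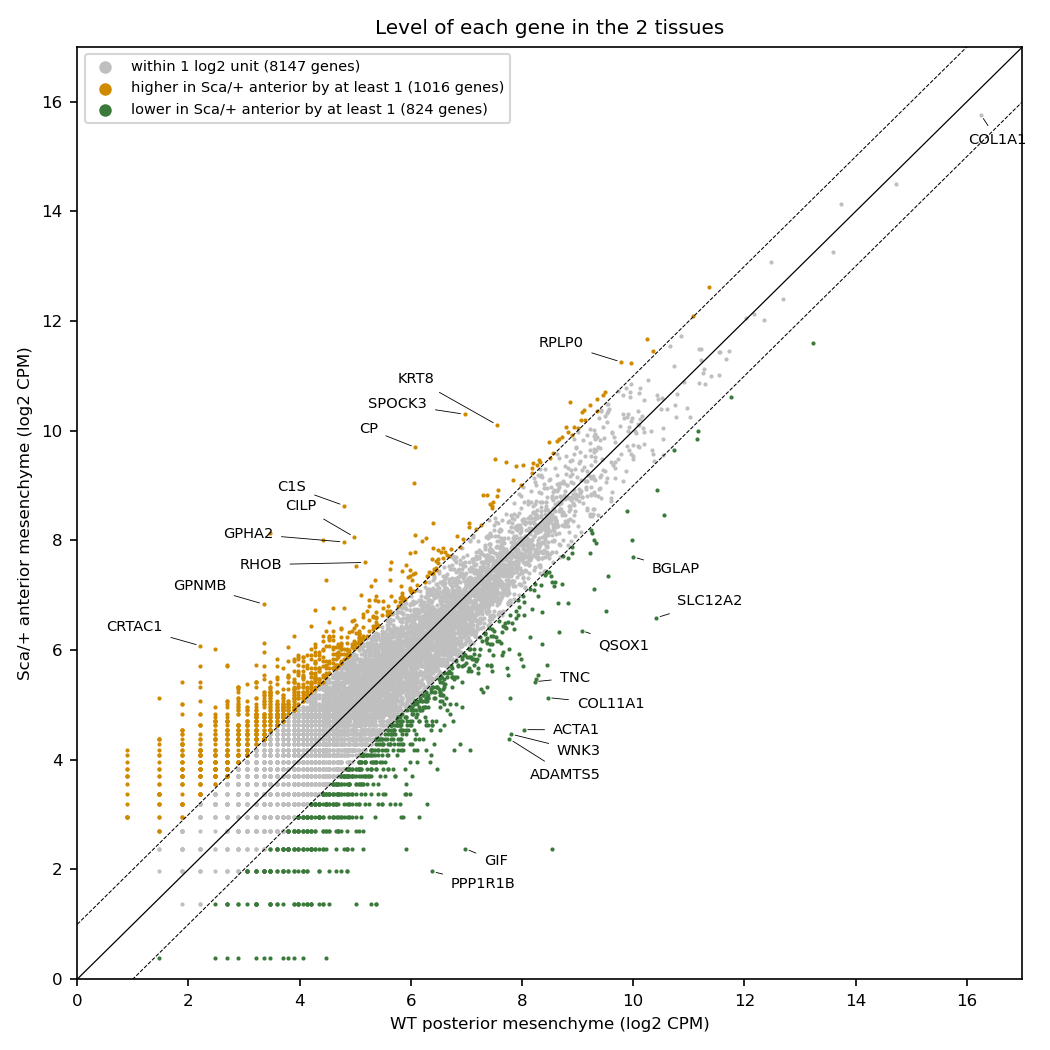
Level of each of the 9987 genes in WT posterior (x axis) and Sca/+ anterior mesenchyme (y axis), both in log2 CPM, with 1 value per group. The solid line marks equal levels and the dashed lines a difference of 1 unit; 1016 genes lie above the upper line and 824 below the lower one, and the rows of points at low levels are single counting steps.

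Both tissues carried the RNA of mesenchyme. The 33 mesenchyme markers summed to 141613 CPM in Sca/+ anterior and 174952 CPM in WT posterior mesenchyme, against 14574 CPM in Sca/+ anterior epithelium. Their median difference was -0.29, with 1 higher and 5 lower, or 3.03% and 15.2%, against 10.2% and 8.25% of all genes. The lower ones included the matrix protein TNC and the transcription factor ZEB1 (-1.16). Epithelial markers differed in level. The 28 kept summed to 12169 CPM in Sca/+ anterior and 5955 CPM in WT posterior mesenchyme. The sums were 7910 CPM in WT anterior and 9425 CPM in Sca/+ posterior mesenchyme, and 27052 CPM in Sca/+ anterior epithelium. Of these 28 markers 13 were higher, or 46.4%, and none lower, and the median was 0.93. No gene is at 0 in a usable column of the table. In bulk tissue, fewer cells of a type and less RNA per cell cannot be told apart.

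Keratins led the epithelial markers. KRT8 was at 10.11 log2 CPM in Sca/+ anterior, 8.69 in WT anterior, 8.58 in Sca/+ posterior and 7.55 in WT posterior mesenchyme, a difference of 2.56 [2.34, 2.79]. In Sca/+ posterior epithelium KRT8 was at 8.62, near its level in Sca/+ posterior mesenchyme, so in that pair it did not mark epithelium. KRT18, its filament partner, differed by 2.03 [1.64, 2.43]. The adhesion genes CDH1 (1.28) and PKP1 (1.35), the basement membrane collagen COL17A1 (1.23) and the epithelial regulator SFN (1.95) were also higher. Across the table, 315 genes were at least 1 unit higher in epithelium than in mesenchyme of both WT anterior and Sca/+ posterior tissue. Of these 94 were higher and 20 lower here, or 29.8% and 6.35%, against 10.2% and 8.25% of all genes. Without the 315 genes, 922 genes were higher and 804 lower. The epithelial markers left are by that rule those not enriched in epithelium in both pairs, so their median of 1.11 is not a measure of epithelial RNA. The part of epithelial RNA in the other differences was not tested.

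Other cell types showed smaller sums. The 9 markers of pericytes and smooth muscle summed to 848 CPM in Sca/+ anterior and 1409 CPM in WT posterior mesenchyme. Of these 5 were lower, or 55.6% against 8.25% of all genes, and none higher. MYH11, the smooth muscle myosin, was at 8.01 log2 CPM in WT posterior and 5.70 in Sca/+ anterior mesenchyme (-2.31 [-2.83, -1.83]), and ACTA2, smooth muscle actin, differed by -1.83. ACTA1, the actin of skeletal muscle, was at 8.03 in WT posterior, 8.01 in Sca/+ posterior, 4.55 in Sca/+ anterior and 2.99 in WT anterior mesenchyme. Its difference was -3.48 [-4.26, -2.79], and both posterior levels were above both anterior ones. Of 6 nerve and glia markers 2 were lower, or 33.3%, among them the myelin gene MBP (-1.97 [-2.19, -1.75]). Leukocyte markers summed to 459 CPM in Sca/+ anterior and 479 CPM in WT posterior mesenchyme. Of the 6 kept 3 were higher, or 50.0% against 10.2% of all genes, ITGB2, CD74 and CSF1R by 1.44, 1.05 and 1.05. None was lower by the rule, but 1 member differed by -0.98, with its interval wholly below 0.

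C1S and CP, genes of the complement cascade and of copper transport in plasma, had the largest interval bounds nearest 0 among the higher genes listed by a symbol. Of 16 genes kept in a list of complement and the acute phase 8 were higher and 3 lower. These are 50.0% and 18.8%, against 10.2% and 8.25% of all genes, and the median difference was 0.91, against -0.01 over all genes. C1S, a serine protease of the first complement component, was at 8.64 log2 CPM in Sca/+ anterior and 4.80 in WT posterior mesenchyme, which is 14.3-fold (3.84 [3.30, 4.43]). Its levels in WT anterior and Sca/+ posterior mesenchyme were 9.75 and 7.20, so that WT posterior tissue was lowest of the 4. C1R, the protease that cleaves C1S, was at 6.74, 7.53, 5.06 and 4.28 in Sca/+ anterior, WT anterior, Sca/+ posterior and WT posterior mesenchyme (2.45 [1.75, 3.22]). C1QA, part of the recognition subunit, differed by 3.04 [1.87, 4.44], and SERPING1, the inhibitor of these proteases, by 1.79 [1.41, 2.17].

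The later components went the other way. C3 (LOC110090193) was at 7.14 log2 CPM in WT posterior and 5.84 in Sca/+ anterior mesenchyme (-1.30 [-1.82, -0.81]). C5 and C9, which act after C3, differed by -2.03 [-3.33, -0.94] and -2.42 [-4.38, -0.91], with 8 and 4 steps in Sca/+ anterior mesenchyme. The list was thus split, with the early proteases higher and C3, C5 and C9 lower.

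CP, ceruloplasmin, a copper-carrying ferroxidase, was at 9.70 log2 CPM in Sca/+ anterior, 11.15 in WT anterior, 6.50 in Sca/+ posterior and 6.08 in WT posterior mesenchyme. It differed by 3.62 [3.27, 3.99], or 12.3-fold, and both anterior levels were above both posterior ones. TF (LOC110075272), transferrin, the iron carrier of plasma, followed the same order at 7.53, 9.44, 6.37 and 5.02, with a difference of 2.51 [1.97, 3.09].

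Several secreted and matrix proteins were highest of the 4 mesenchyme groups in Sca/+ anterior tissue. SPOCK3, a testican proteoglycan, was at 10.30 log2 CPM there, 8.89 in WT anterior, 8.18 in Sca/+ posterior and 6.97 in WT posterior mesenchyme (3.33 [3.07, 3.60]). CILP, cartilage intermediate layer protein, was at 8.07 in Sca/+ anterior and between 4.98 and 5.41 in the other 3 mesenchyme groups (3.09 [2.56, 3.66]). GPHA2, a subunit of a glycoprotein hormone, was at 7.97 in Sca/+ anterior and between 4.80 and 5.82 in the others (3.17 [2.61, 3.78]). CILP and GPHA2 therefore differed from WT anterior tissue as well, whose levels of 5.28 and 5.36 were near those of WT posterior tissue. GPHA2 was also at 7.19 and 7.39 in Sca/+ anterior and Sca/+ posterior epithelium, whereas CILP was at 3.72 and 3.22 there.

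Among other leading genes, CRTAC1, GPNMB and LAMC3 had 5, 11 and 5 steps in WT posterior mesenchyme, and RHOB had 39. CRTAC1, cartilage acidic protein, had 52 steps in Sca/+ anterior and 5 in WT posterior mesenchyme (3.87 [2.55, 5.55]). GPNMB, a membrane glycoprotein of osteoblasts and macrophages, was at 6.84 log2 CPM in Sca/+ anterior, 5.17 in WT anterior, 3.35 in WT posterior and 2.50 in Sca/+ posterior mesenchyme (3.49 [2.58, 4.54]). The laminin chain LAMC3 differed by 3.49 [2.15, 5.19]. RHOB, a small GTPase that is induced early by growth factors and stress, was at 7.60 in Sca/+ anterior, 6.25 in Sca/+ posterior, 5.28 in WT anterior and 5.18 in WT posterior mesenchyme (2.42 [1.91, 2.97]). Of the 20 immediate early genes kept, 2 were higher and 3 lower, or 10.0% and 15.0%, against 10.2% and 8.25% of all genes. Their median was 0.00, so RHOB did not stand for that list.

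**Figure D2:**
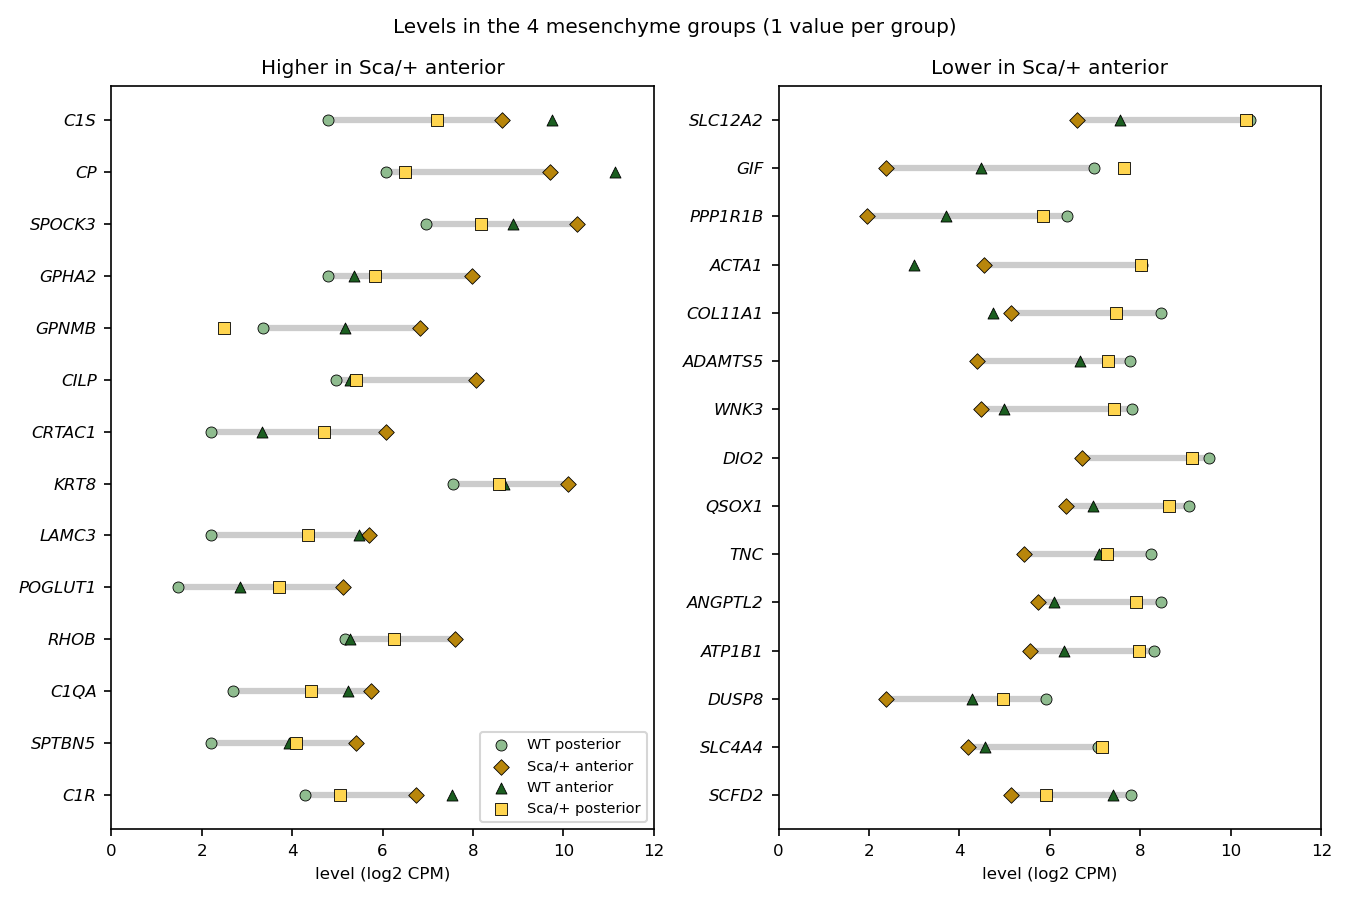
Levels (log2 CPM, x axis) in the 4 mesenchyme groups for genes higher (left) and lower (right) in Sca/+ anterior than in WT posterior mesenchyme, chosen among genes with a symbol by the interval bound nearest 0, with 1 point per group and a grey bar joining the 2 groups compared. For SLC12A2 and ACTA1 the Sca/+ posterior point lies on the WT posterior one, at 10.34 beside 10.41 and at 8.01 beside 8.03.

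Several of the lower genes move salt and water across cell membranes. A list of fluid secretion and ion transport was drawn up after these leading genes had been seen, so its count restates them and supports nothing: 9 of 20 genes kept were lower and 3 higher. Among members with at least 20 steps in both groups, a rule that drops genes low in Sca/+ anterior tissue, 4 were lower and 2 higher. SLC12A2, the cotransporter that loads cells with sodium, potassium and chloride, was at 10.41 log2 CPM in WT posterior, 10.34 in Sca/+ posterior, 7.55 in WT anterior and 6.59 in Sca/+ anterior mesenchyme. WT posterior tissue thus had 14.2-fold more of its RNA than Sca/+ anterior tissue (-3.82 [-4.18, -3.49]), and both posterior groups were above both anterior ones. WNK3, a kinase that switches this cotransporter on, was at 7.80, 7.41, 4.99 and 4.47 in the same order (-3.34 [-4.14, -2.63]). STK39, the kinase between WNK kinases and SLC12A2, differed by -2.39 [-3.39, -1.51].

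Partners of the same transport were lower too. The sodium bicarbonate cotransporter SLC4A4 differed by -2.87 [-3.78, -2.08] and ATP1B1, a subunit of the sodium pump, by -2.74 [-3.28, -2.24]. AQP5 (LOC110074423), a water channel of gland cells, was at 5.80 log2 CPM in WT posterior, 6.20 in Sca/+ posterior, 3.19 in Sca/+ anterior and 2.53 in WT anterior mesenchyme (-2.61 [-3.99, -1.48]). The calcium-activated chloride channel ANO1 differed by -1.96 [-2.65, -1.32] and the muscarinic receptor CHRM3 by -2.06 [-2.82, -1.37]. Other channels of water differed upward, AQP1 by 1.13 [0.92, 1.34] and AQP3 by 1.44 [0.45, 2.48], as did the pump subunit ATP1B3 by 1.17 [0.79, 1.55]. The list's summed level was 4181 CPM in WT posterior and 4115 CPM in Sca/+ posterior, against 2057 CPM in Sca/+ anterior and 2032 CPM in WT anterior mesenchyme. Like the count, this sum restates genes picked by their values and supports nothing. SLC12A2 alone was at 1364 CPM in WT posterior and 96.3 CPM in Sca/+ anterior mesenchyme.

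In epithelium SLC12A2 was at 6.62 log2 CPM in Sca/+ anterior and 6.98 in Sca/+ posterior tissue. The former is near its 6.59 in Sca/+ anterior mesenchyme, and the latter is below its 10.34 in Sca/+ posterior mesenchyme. A list of glandular secretory cells, also drawn up after the values were seen, had 28 genes, of which 5 were kept. Of these 1 was lower and none higher, or 20.0% lower against 8.25% of all genes, and this count supports nothing either. The lower gene was EHF, an ETS factor of secretory epithelia (-2.53 [-3.80, -1.47]). What cells carry these RNAs was not tested.

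**Figure D3:**
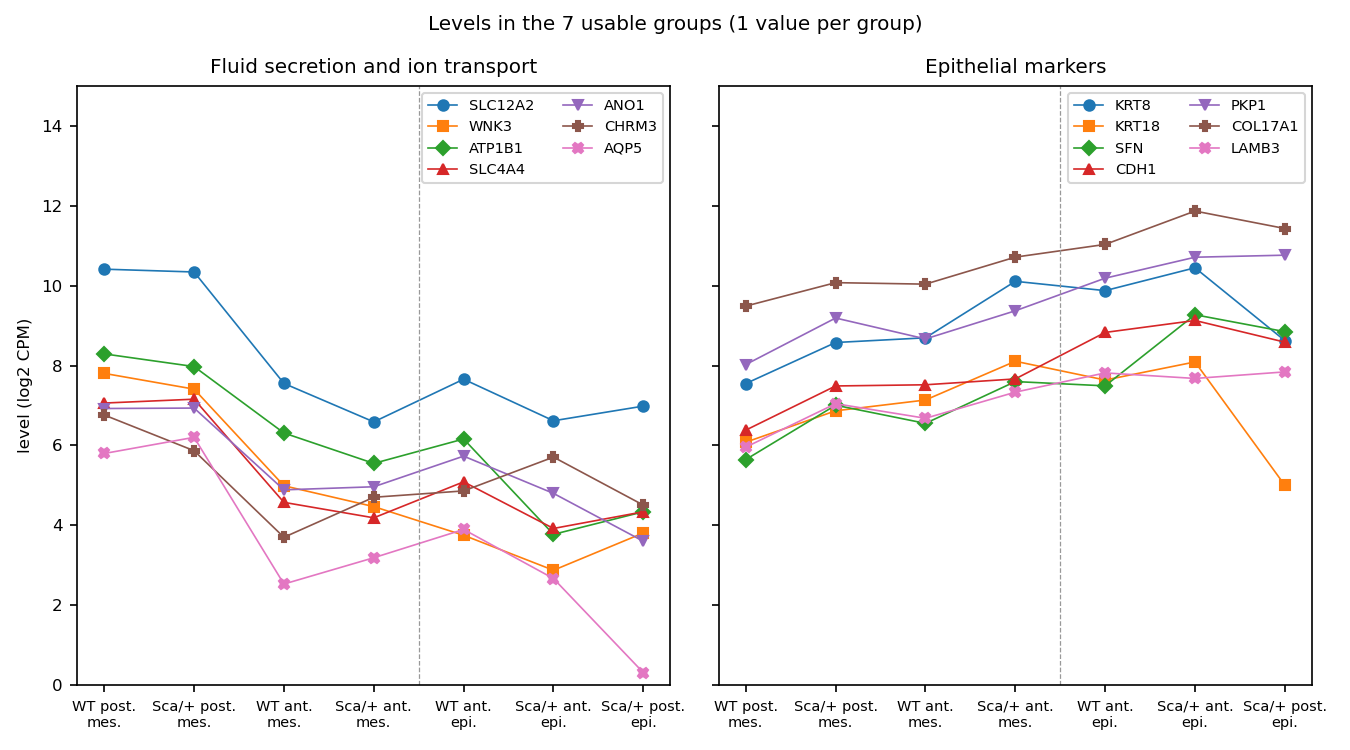
Levels (log2 CPM, y axis) of 7 fluid transport genes (left) and 7 epithelial markers (right) in the 7 usable groups. Each group has 1 point, lines join a gene's points, and the dashed line separates mesenchyme from epithelium. The transport genes shown were all lower in Sca/+ anterior than in WT posterior mesenchyme, and AQP1, AQP3 and ATP1B3, which were higher, are left out. The epithelial markers are 7 picked from the 28 kept, of which 3 lay below 0. SLC12A2 is at 10.41 and 10.34 in posterior mesenchyme and between 6.59 and 7.66 in the other 5 groups, while KRT8 is at 7.55 in WT posterior and 10.11 in Sca/+ anterior mesenchyme.

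Of 17 genes of bone and dentin matrix kept, 3 were lower and none higher. That is 17.6% lower against 8.25% of all genes, and 15 of the 17 lay below 0 (median -0.51). BGLAP, osteocalcin, a late product of osteoblasts and odontoblasts, was at 10.11 log2 CPM in Sca/+ posterior, 10.00 in WT posterior, 7.70 in Sca/+ anterior and 6.90 in WT anterior mesenchyme (-2.30 [-2.54, -2.06]). COL11A1, a minor fibrillar collagen, was at 8.46 in WT posterior, 7.45 in Sca/+ posterior, 5.13 in Sca/+ anterior and 4.74 in WT anterior mesenchyme (-3.33 [-3.95, -2.76]). SP7, the osterix transcription factor of osteoblasts, differed by -1.14 [-1.78, -0.54]. In each of these 3 genes both posterior levels were above both anterior ones.

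Other bone genes differed by less than 1 unit. COL1A1, the main collagen of bone and dentin, differed by -0.50 [-0.51, -0.48], the mineral-binding proteins IBSP and SPP1 by -0.56 and -0.52, and RUNX2, which acts upstream of SP7, by -0.47. Of the 12 enamel genes listed none was a row of the table, and they are not analysed here.

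Matrix enzymes were lower more often than higher. Of 35 genes of matrix remodelling 9 were lower and 2 higher, or 25.7% and 5.71%, against 8.25% and 10.2% of all genes. ADAMTS5, a protease that cleaves aggrecan and versican, was at 7.77 log2 CPM in WT posterior, 7.29 in Sca/+ posterior, 6.66 in WT anterior and 4.38 in Sca/+ anterior mesenchyme (-3.39 [-4.22, -2.66]). TNC, tenascin C, was at 8.23, 7.25, 7.09 and 5.42 in the same order (-2.80 [-3.37, -2.28]), so Sca/+ anterior tissue was lowest of the 4 for both. The urokinase PLAU (-2.51), the crosslinking enzyme LOXL2 (-1.62) and the procollagen protease ADAMTS2 (-1.35) were lower as well, while MMP28 (1.71) and ADAMTS6 (1.34) were higher. Of 28 collagens 4 were lower, or 14.3% against 8.25% of all genes, and 1 was higher, the epithelial COL17A1 (median -0.19). Of 31 proteoglycans and elastic fiber genes, 15 above 0 and 16 below (median -0.03), 4 were lower and 1 higher, or 12.9% and 3.23%. ASPN (-1.51), a small proteoglycan of the periodontal ligament, led the lower ones, and FBLN2 (1.46) was higher.

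Among the other lower genes, DIO2, the deiodinase that activates thyroid hormone, set Sca/+ anterior tissue apart from the other 3 mesenchyme groups. It was at 9.51 log2 CPM in WT posterior, 9.15 in WT anterior, 9.13 in Sca/+ posterior and 6.72 in Sca/+ anterior mesenchyme (-2.79 [-3.14, -2.46]). PPP1R1B, a phosphatase inhibitor known from dopamine signaling, had 90 steps in WT posterior and 3 in Sca/+ anterior mesenchyme (-4.42 [-6.72, -2.82]). ANGPTL2 and QSOX1, a secreted glycoprotein and a secreted sulfhydryl oxidase, both differed by -2.72.

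Regulators of jaw patterning and tooth mesenchyme were called in both directions. Of 39 kept, 5 were higher and 4 lower, or 12.8% and 10.3%, near the 10.2% and 8.25% of all genes. The median was 0.30, with 27 members above 0 and 12 below, and intervals lay wholly above 0 in 13 and below 0 in 7. Among the higher ones, PAX9, a regulator of tooth mesenchyme, was at 5.93 log2 CPM in Sca/+ anterior, 5.79 in Sca/+ posterior, 5.34 in WT anterior and 4.84 in WT posterior mesenchyme (1.09 [0.40, 1.79]). SOX2, a factor of dental lamina stem cells, had 14 steps against 2 (3.30 [1.17, 6.48]). It was at 4.19 in Sca/+ anterior, 3.34 in WT anterior, 1.18 in Sca/+ posterior and 0.89 in WT posterior mesenchyme. In Sca/+ anterior and Sca/+ posterior epithelium SOX2 was at 4.21 and 4.56. MSX2, a homeobox factor downstream of BMP, had 10 steps against 2 (2.81 [0.58, 6.04]). TFAP2A, a neural crest factor, was called higher at 1.07, with an interval that included 0 [-0.06, 2.26].

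Of the 4 lower regulators ZFHX4 had the most counts, 680 steps in WT posterior and 106 in Sca/+ anterior mesenchyme. ZFHX4, a zinc finger homeobox factor, was at 9.30 log2 CPM in WT posterior, 8.73 in Sca/+ posterior, 7.12 in WT anterior and 7.11 in Sca/+ anterior mesenchyme (-2.19 [-2.50, -1.90]). SIX2, a homeobox factor of head mesenchyme, differed by -1.25 [-2.10, -0.47], its cofactor EYA4 by -1.10 [-1.93, -0.33] and the HOX cofactor MEIS1 by -1.02 [-1.86, -0.24]. For ZFHX4 and MEIS1, as for SIX2, the Sca/+ posterior level was nearer to WT posterior than to Sca/+ anterior tissue, whereas EYA4 was at 4.09 in Sca/+ posterior, below the 4.63 of Sca/+ anterior mesenchyme. The other 30 regulators lay within 1 unit, among them MSX1 (0.79), OSR2 (0.96), LEF1 (0.93), TWIST1 (-0.94), NR2F2 (-0.70) and RUNX1 (0.22). ALX1 and SIX3 are not rows of the table and are not analysed here.

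In the EDA pathway, which carries the mutation, 3 of 23 genes kept were higher and 1 lower, or 13.0% and 4.35%. The shares over all genes were 10.2% and 8.25%. The median was 0.04 over all 23 and 0.49 over the members with at least 20 steps in both groups, and the interval lay above 0 in 6 members and below 0 in none. EDA itself, the ligand, was at 4.08 log2 CPM in Sca/+ anterior, 3.48 in WT posterior, 2.64 in Sca/+ posterior and 2.34 in WT anterior mesenchyme. With 13 and 12 steps its difference of 0.60 [-0.64, 1.87] was not detectable at this depth. The same holds for EDARADD, the adaptor of the receptor, with 7 and 6 steps (0.71 [-1.09, 2.56]). EDAR is not a row of the table.

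On the NF-kB side, the higher genes were NFKB2, a subunit of the noncanonical pathway (1.42 [0.79, 2.08]), TNFRSF19, a receptor related to EDAR (1.06 [0.65, 1.48]), and TAB1, an adaptor of the kinase MAP3K7, with 12 steps against 4 (2.07 [0.35, 4.16]). The nuclear cofactor BCL3 was lower, with an interval that included 0 (-1.10 [-2.57, 0.19]). NFKB1 differed by 0.94 [0.35, 1.53], the inhibitor and target NFKBIA by 0.76 [0.01, 1.52], NFKBIZ by 0.61 and RELA by 0.62. NFKBIA was highest in WT anterior mesenchyme, at 6.26 log2 CPM, against 5.51 in Sca/+ anterior, 5.33 in Sca/+ posterior and 4.75 in WT posterior mesenchyme. The EDA list summed to 1518 CPM in WT anterior, 1129 CPM in Sca/+ anterior, 944 CPM in WT posterior and 896 CPM in Sca/+ posterior mesenchyme. Sca/+ anterior minus WT anterior mesenchyme gave a list median of -0.23. The kinase subunits CHUK, IKBKB and IKBKG differed by 0.04, -0.65 and 0.48, and the remaining members by between -0.73 and 0.49.

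Hedgehog, FGF and Wnt genes had calls in both directions within each pathway. Of 13 hedgehog genes 1 was higher and 1 lower, or 7.69% each, against 10.2% and 8.25% of all genes. Their median was 0.44, with 9 above 0 and 4 below, and no hedgehog gene with at least 20 steps in both groups was called. HHAT, which acylates the ligand, was higher (1.63 [-0.02, 3.50]), and GAS1, a coreceptor, was lower (-1.63 [-2.49, -0.86]). BOC, another coreceptor, differed by 0.90 [0.67, 1.14], the transducer SMO by 0.80, the receptor and target PTCH1 by 0.55, GLI1 by 0.85 and the third coreceptor CDON by -0.42. KIF7, GLI2, GLI3, SUFU and DISP1 differed by 0.65, 0.44, 0.09, -0.05 and -0.49. SHH is not a row of the table.

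In FGF signaling 4 of 16 genes were lower and 1 higher, or 25.0% and 6.25%, against 8.25% and 10.2% of all genes. The target ETV1 was at 8.15 log2 CPM in WT posterior, 8.13 in Sca/+ posterior, 6.71 in WT anterior and 6.24 in Sca/+ anterior mesenchyme (-1.91 [-2.34, -1.50]). The receptor FGFR3 differed by -1.74 [-2.27, -1.24], the feedback inhibitor SPRY4 by -2.05 [-3.60, -0.79] and the mesenchymal ligand FGF10 by -1.01 [-1.47, -0.57]. DUSP6, another feedback inhibitor, was higher by 1.23 [0.54, 1.93], so the targets of this pathway did not differ together. FGF20 is not a row of the table.

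Of 39 Wnt genes 6 were higher and 5 lower, or 15.4% and 12.8%, against 10.2% and 8.25% of all genes. The median of the Wnt genes was 0.26, and it was -0.05 without the genes enriched in epithelium. The receptors FZD4 (-2.90 [-4.40, -1.70]) and FZD7 (1.41 [0.71, 2.14]) differed in opposite directions. Of the ligands, WNT5A (1.23), WNT4 (1.18) and WNT11 (1.15) were higher and WNT5B (-1.06) was lower, and the targets AXIN2 and LEF1 differed by 0.85 and 0.93. In BMP and TGF-beta signaling 2 of 34 genes were higher, or 5.88% against 10.2% of all genes, and none was lower. The higher ones were the ligand BMP7 (1.95 [1.09, 2.87]) and the secreted activin inhibitor FSTL3 (1.78).

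**Figure D4:**
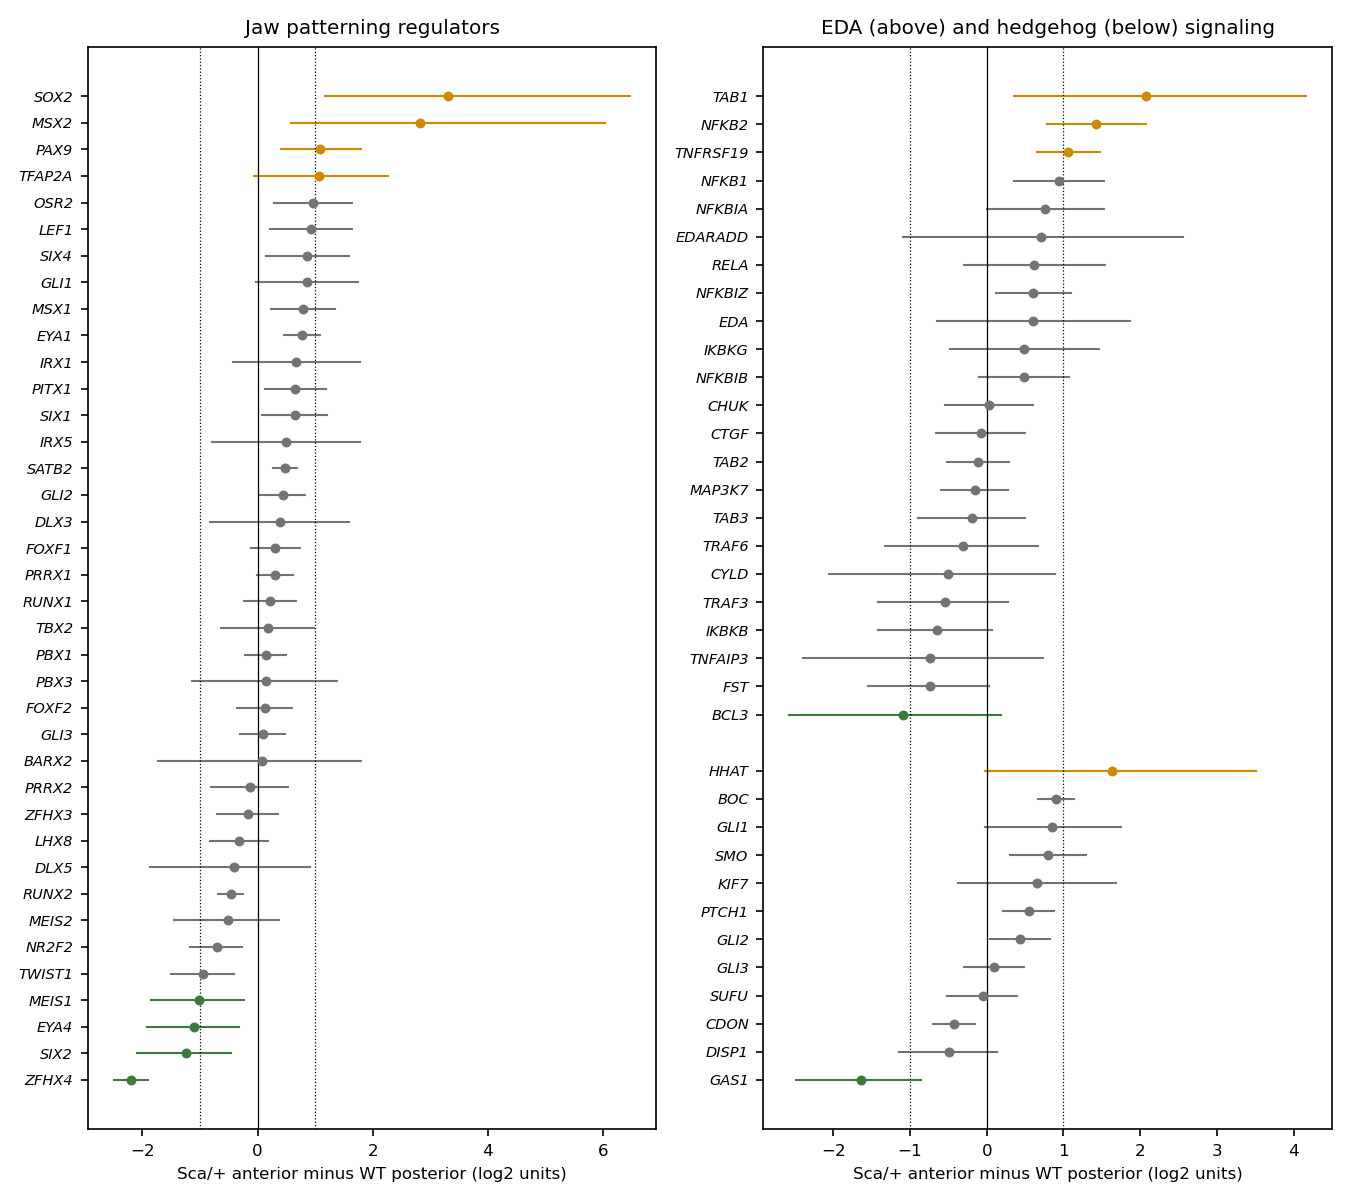
Differences of members kept (x axis, Sca/+ anterior minus WT posterior, log2 units) for jaw patterning regulators (left) and for EDA and hedgehog signaling (right), with 95% counting intervals as bars, green for lower, orange for higher and grey for within 1 unit. The wide bars of SOX2 and MSX2 rest on 2 steps in WT posterior mesenchyme, and the narrow bar of ZFHX4 at -2.19 ends at -1.90.

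Genes of cell division were called higher more often than lower, many on few counts. Of 40 genes of the G2/M phases 10 were higher and 2 lower, or 25.0% and 5.00%. The shares over all genes were 10.2% and 8.25%, and the G2/M median was 0.47. In the S phase list of 32 genes the counts were 6 and 1, or 18.8% and 3.1%, with a median of 0.30. Sca/+ anterior minus WT anterior mesenchyme gave medians of -0.41 for G2/M and -0.22 for S phase. The G2/M sums were 2270 CPM in WT anterior, 1778 CPM in Sca/+ anterior and 1487 CPM in WT posterior mesenchyme. WT anterior tissue was thus highest in the G2/M list, unlike in CCNB1. CCNB1, the mitotic cyclin, was at 4.96 log2 CPM in Sca/+ anterior, 4.57 in WT anterior, 3.94 in Sca/+ posterior and 3.80 in WT posterior mesenchyme (1.17 [0.18, 2.20]). CKS2, a subunit of cyclin-dependent kinases (2.49), the proliferation marker MKI67 (1.12) and the replicative helicase subunits MCM5 (1.49) and MCM2 (1.27) were higher as well. PCNA, the sliding clamp of replication, differed by 0.61 [-0.01, 1.24], and CKAP2, NUF2 and UNG were lower by between -1.76 and -1.25. Intervals excluded 0 upward in 10 of the 40 G2/M genes and 4 of the 32 S phase genes, and downward in 2 and 1. With at least 20 steps in both groups 2 G2/M and 3 S phase genes were higher and none lower, and the G2/M median was 0.18 with a filter at 5 log2 CPM. Of 11 cell cycle inhibitors 2 were higher, or 18.2% against 10.2% of all genes, among them RBL1 (1.19), and none was lower.

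Cytosolic ribosomal protein genes differed as a block. All but 2 of 73 lay above 0, with intervals above 0 in 70. Of the 73, 20 were called higher, or 27.4% against 10.2% of all genes, and none lower (median 0.82). Their summed level was 71184 CPM in Sca/+ anterior, 40324 CPM in WT posterior, 37038 CPM in WT anterior and 90883 CPM in Sca/+ posterior mesenchyme, so both Sca/+ groups were above both WT groups. RPLP0, a protein of the ribosomal stalk, was at 11.26 log2 CPM in Sca/+ anterior and 9.78 in WT posterior mesenchyme (1.47 [1.36, 1.59]). Proteins of the mitochondrial ribosome showed no such block, with 7 of 71 higher and 7 lower, or 9.86% each, near the shares over all genes. Of these 71, 45 lay above 0 and 26 below (median 0.23), with intervals above 0 in 8 and below 0 in 3. Total steps were 789353 in Sca/+ anterior and 1837779 in Sca/+ posterior against 1130499 and 1212704 in WT posterior and WT anterior mesenchyme. What lies behind the block of cytosolic ribosomal protein genes was not tested.

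**Figure D5:**
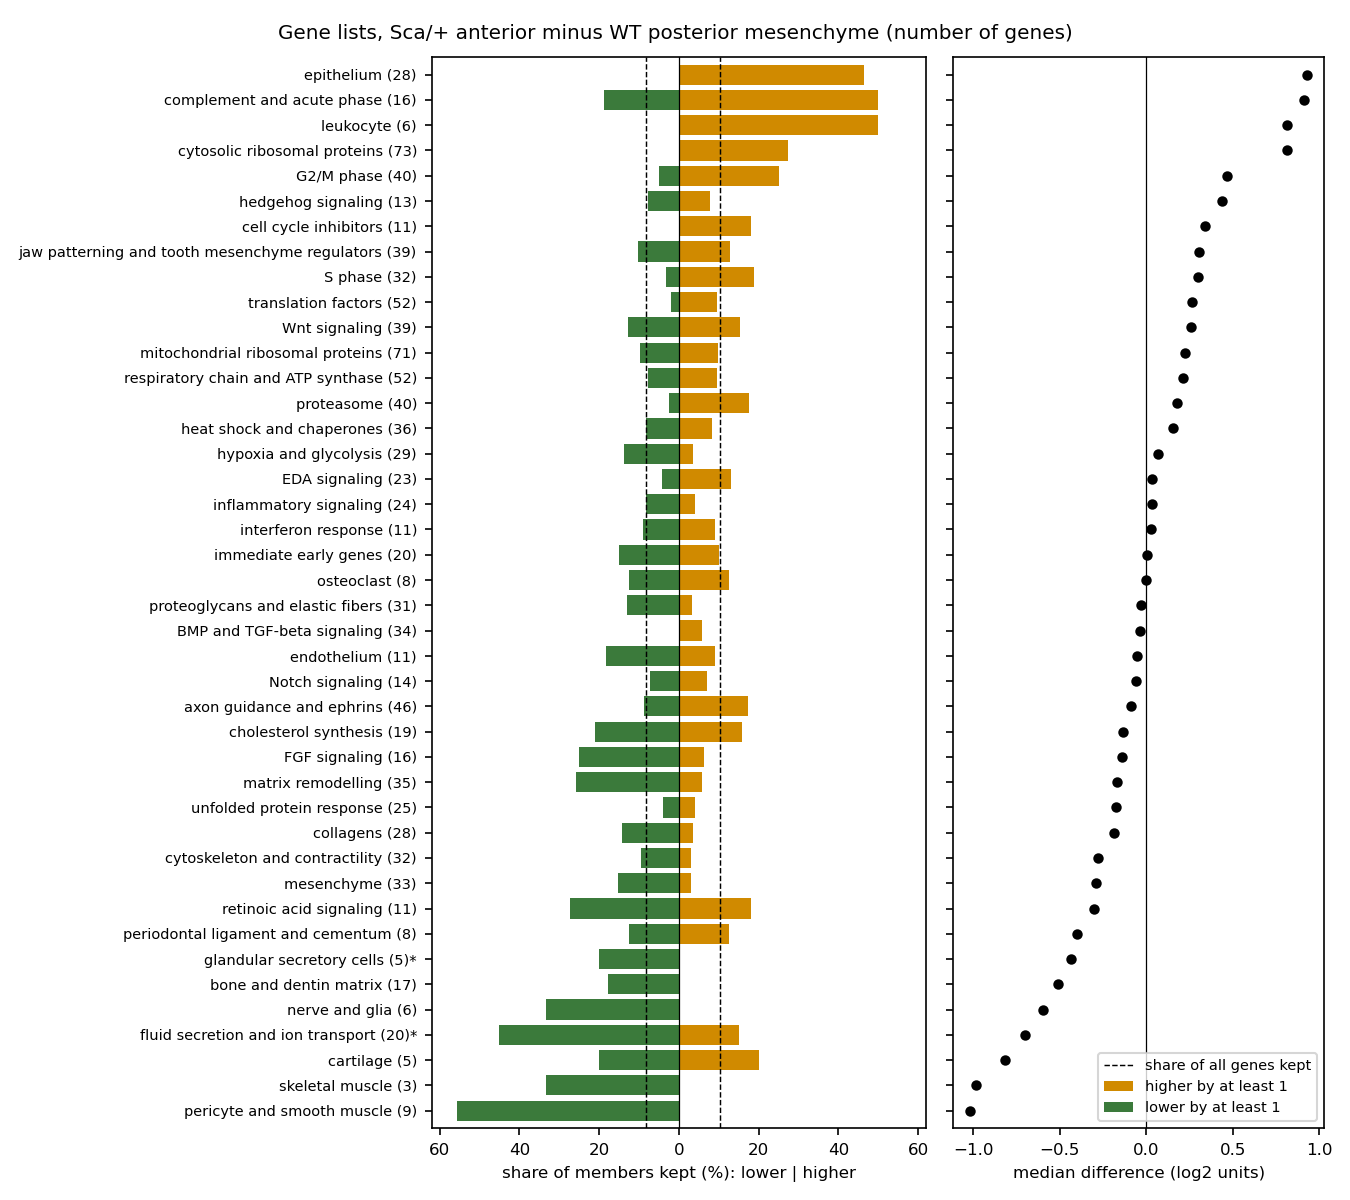
Share of the members kept (left, %) that were higher (orange) or lower (green) by at least 1 unit, and median difference (right, log2 units), for each gene list with at least 3 members kept; numbers in brackets are members kept, asterisks mark the 2 lists drawn up after values were seen, and dashed lines show the shares over all genes, 10.2% and 8.25%. Epithelial markers (median 0.93) and complement and acute phase genes (0.91) head the plot, and pericyte and smooth muscle markers (-1.02) end it.

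Epithelium offers a look at position with other libraries. Sca/+ anterior minus Sca/+ posterior epithelium shares no column with the comparison above, although the Sca/+ animals are the same. There 667 of the 9987 genes were higher at the anterior position, or 6.68%, and 701 were lower, or 7.02%. Of the 1016 genes higher in mesenchyme 130 were also higher in anterior epithelium (12.8%) and 48 were lower (4.72%). Of the 824 lower genes 140 were also lower (17.0%) and 76 were higher (9.22%). The shared genes are 19.5% of those higher and 20.0% of those lower in epithelium.

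Genes lower in both comparisons included products of bone and connective tissue. In epithelium the mesenchyme markers as a whole moved with them, 12 of 33 being lower and none higher at the anterior position (median -0.89), and their part in these differences was not tested. BGLAP differed by -2.30 in mesenchyme and -3.86 in epithelium, DIO2 by -2.79 and -3.65, ASPN by -1.51 and -2.06, and the small proteoglycan OGN by -1.09 and -2.28. The collagen receptor ITGA11 and the microfibril protein MFAP5 differed by -2.06 and -1.16 in mesenchyme and by -1.97 and -1.80 in epithelium. Genes higher in both included KRT18, at 2.03 in mesenchyme and 3.09 in epithelium, KRT8 (2.56 and 1.82) and BMP7 (1.95 and 2.01). COMP, a cartilage matrix protein (1.35 and 2.63), and SREBF1, a regulator of lipid synthesis, were higher in both too. SREBF1 differed by 2.23 in mesenchyme, with a wide interval [0.86, 3.83], and by 3.56 in epithelium. Of the transport genes lower in mesenchyme, SLC12A2, WNK3 and ATP1B1 differed by -0.37, -0.93 and -0.56 in epithelium, less than the rule of 1 unit. The intervals of SLC12A2 and WNK3 lay below 0 there too. ANO1 and CHRM3 were both higher at the anterior position in epithelium by 1.20, and AQP5 by 2.36 [0.66, 4.43]. AQP3 was higher in both comparisons, by 1.44 and 5.01.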

How the data were processed

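Dental mesenchyme and epithelium of hatchlings were collected by laser capture microdissection, and rRNA-depleted libraries (Nugen Ovation SoLo) were sequenced in pairs of reads on an Illumina NextSeq instrument. The authors trimmed reads (Trimmomatic, per the labels), aligned and counted them with STAR and normalized counts with edgeR; versions are not given in the sources used here. The deposited file gives log2 CPM, called means by the authors, in 1 column per group. For WT posterior epithelium 11121 of 11126 entries are a filler that grows by 1e-09 per row, and that column was not used. Groups follow the sample names, and 100% of values in the 7 usable columns were whole multiples of 1 step, with totals of 789353 steps in Sca/+ anterior and 1130499 in WT posterior mesenchyme.

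Differences of deposited log2 values were taken for the 9987 genes averaging 3 log2 CPM or more, and 95% intervals came from exact binomial limits on steps. Recovery of known differences was tested on simulated counts. These were drawn with counting error alone and 1 step as 1 count, as the intervals assume. The simulation therefore tests neither that assumption nor spread between animals. Of 1662 LOC identifiers, 323 were given a symbol through the RefSeq gene table (assembly PviZW2.1), which was used for names alone, and 8937 of 9464 symbols matched it. The members and lists were chosen with earlier results of these data known. The 42 lists came from textbook knowledge, and 2 more were added after values were seen. Named genes were, among genes listed by a symbol, the 15 per direction whose interval bound nearest 0 was largest in size, the 5 per direction with the largest difference, up to 5 members per list, all members of the jaw, EDA and hedgehog lists, named LOC genes and genes the study names; genes of uncertain role were left out, and a few others selected this way are not reported here. Genes shared with epithelium, and further list members beyond this rule, were named after their values were seen. The alternatives were a call rule of 0.58 or 2 log2 units, no filter on low values or one at 5 log2 CPM, 3 other scalings, list means, log2(CPM + 2), at least 20 steps, and, added after seeing the data, leaving out epithelium-enriched genes. Fits with limma, planned for single samples, were not run. Scripts ran in Python 3.11.15 with scipy 1.17.1, pandas 2.3.3 and numpy 2.4.6, and plots in matplotlib 3.10.9.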

Additional observations from a re-analysis of the deposited data

How the results depend on the processing

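With 1 value per group, no result has an error between animals, and single samples are not analysed here, so leaving out replicates was not run. No paired analysis was possible because the columns carry no replicate numbers. A filter at 5 log2 CPM gave 307 genes higher and 290 lower, and at least 20 steps in both columns left 327 and 253, since fewer genes were tested. A rule of 0.58 log2 units gave 2116 and 1916, and a rule of 2 units 138 and 132. No filter, centring on the median, rescaling without ribosomal protein genes or to the upper quartile, and leaving out epithelium-enriched genes kept both counts within 1.5 times 1016 and 824, and those scalings moved the median of all genes by under 0.1. Medians of lists kept their sign under these settings and as list means, except for lists whose median lay within 0.1 of 0, EDA signaling among them, and for Wnt signaling, at -0.052 without the epithelium-enriched genes. Counts of members per list, which are small, moved by over 1.5 times in 158 cases. For the leading genes, the named LOC genes and the genes the study names, all 196 differences under other scalings or log2(CPM + 2) stayed within their counting intervals. For the scalings this was largely fixed in advance, since they shift every gene by under 0.1 and most of those intervals are far wider. COL1A1, with a much narrower interval, was not among them, and the larger of these shifts take it outside that interval. Depth limits genes under 20 steps most, EDA and EDARADD among them.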

Other observations

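Other gene groups differed in single members more than as a group. In retinoic acid signaling 3 of 11 genes were lower and 2 higher, or 27.3% and 18.2%, against 8.25% and 10.2% of all genes. ALDH1A3, which makes retinoic acid, differed by -2.29 and DHRS3, which limits its precursor, by -1.03, while the receptors RXRA and RXRB were higher by 1.65 and 1.43. Of 46 genes of axon guidance and ephrin signaling 8 were higher and 4 lower, or 17.4% and 8.70%. The ephrin EFNA1 (2.20) and its receptor EPHA1 (1.73) were higher, and the semaphorins SEMA3E (-2.13) and SEMA6D (-1.50) were lower. In glycolysis and hypoxia 4 of 29 genes were lower and 1 higher, or 13.8% and 3.45%. The lower ones included the lactate exporter SLC16A3 (-2.10), the regulatory enzyme PFKFB3 (-1.98) and PFKP (-1.48), whereas GAPDH was higher (1.23). Of 40 proteasome genes 7 were higher and 1 lower, or 17.5% and 2.50%. Of 52 genes of the respiratory chain and ATP synthase 5 were higher and 4 lower, or 9.62% and 7.69%, near the shares over all genes.

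The single differences that were largest in each direction belong to genes without a name in the table used. LOC110081122 was at 8.14 log2 CPM in Sca/+ anterior, 7.86 in WT anterior, 3.48 in WT posterior and 2.77 in Sca/+ posterior mesenchyme, a difference of 4.67 [3.83, 5.64]. LOC110083760 was at 8.53 in WT posterior, 8.51 in Sca/+ posterior, 4.66 in WT anterior and 2.38 in Sca/+ anterior mesenchyme, a difference of -6.16 [-8.04, -4.79]. In both genes the 2 anterior groups lay on one side and the 2 posterior groups on the other. These 2 genes were named after their values were seen.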
